A study of Mus musculus with 12 samples.

Results

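Convergent CDR3s, amino acid sequences of the third complementarity-determining region (CDR3) of the T-cell receptor (TCR) β chain that several different nucleotide rearrangements encode, were examined in CD8+ T cells of MC38 tumor-bearing mice. Within each experiment, the productive (in-frame) rows of its 4 libraries were pooled, and a CDR3 was taken as convergent when at least 5 distinct nucleotide entries translated to it. An entry is 1 deposited rearrangement sequence of 87 nucleotides. Of 139710 CDR3s in the series, 1222 were convergent in at least 1 experiment, with 522 (1.01%) of 51537 in experiment A, 444 (0.950%) of 46718 in experiment B and 856 (1.31%) of 65278 in experiment C. They held 5.86%, 5.55% and 7.62% of the productive entries of the 3 experiments.

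The 12 libraries came from female C57BL/6 mice, aged between 7 and 12 weeks when experiments began, bearing MC38, a transplanted colon adenocarcinoma line, and all mice had received anti-CTLA-4 Ab and anti-PD-L1 Ab, so no untreated group stands beside them. Spleen gave 3 flow-sorted CD8+ subsets, CD27lo CX3CR1-, CD27hi CX3CR1- and CX3CR1+ (named CX3CR1lo and CX3CR1hi in the labels), and the tumor gave CD8+ TILs (tumor-infiltrating lymphocytes) enriched on CD8a. Each group has 1 library in each of the 3 experiments. The paper's supplement states that each experiment used several mice, while the labels do not say how many of them gave a library. No entry is assigned to a mouse, so whether several entries of a CDR3 come from 1 mouse or from different mice cannot be told apart. TCRβ was sequenced from genomic DNA, which carries no expression of CD27, CX3CR1 or any other marker, and the labelled cell types could not be checked against it. Productive templates (the count deposited for each entry) numbered 18180 to 21622 in the CD27lo CX3CR1- libraries, 49116 to 71574 in the CD27hi CX3CR1- libraries, 50994 to 113660 in the CX3CR1+ libraries and 5893 to 20951 in the TIL libraries. A limit of 3 templates lies between 0.00264% and 0.0509% of a library. Intervals given here cover counting error only, since templates counted after PCR are not independent molecules.

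A TCRβ gene is assembled in the thymus by joining a V, a D and a J segment, trimming their ends and adding nontemplated (N) nucleotides at the joints. Because the genetic code is redundant, different joining events can give the same protein loop, and a loop that can be built with few or no N nucleotides can arise by many routes. This is called convergent recombination, and CDR3s made this way are often found in many animals. In principle each rearrangement of such a CDR3 marks a separate joining event, whereas expansion of a clone multiplies 1 such event.

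The CDR3 with the highest mean template share in the CX3CR1+ and TIL libraries among those convergent in all 3 experiments was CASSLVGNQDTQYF. It shows how 1 loop was written in several ways: 37 entries encoded it in the series, through 19 distinct coding sequences of the CDR3. In the lines that follow, N nucleotides, as the deposited V, D and J boundaries place them, are in capitals, and each sequence runs from the first codon of the CDR3 up to, but not including, its last codon, where the reads end. Templates given for a printed sequence are those of its leading entry in that experiment.
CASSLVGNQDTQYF sequence 1: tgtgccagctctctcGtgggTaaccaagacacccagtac
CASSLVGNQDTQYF sequence 2: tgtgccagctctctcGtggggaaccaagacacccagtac
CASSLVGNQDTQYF sequence 3: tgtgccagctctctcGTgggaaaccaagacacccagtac
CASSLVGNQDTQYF sequence 4: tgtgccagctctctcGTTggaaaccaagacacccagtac
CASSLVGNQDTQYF sequence 5: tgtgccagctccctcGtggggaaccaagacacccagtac
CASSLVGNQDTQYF sequence 6: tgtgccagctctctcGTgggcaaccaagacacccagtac
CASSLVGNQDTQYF sequence 7: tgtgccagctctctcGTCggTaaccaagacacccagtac
Sequences 1 and 2 were found in all 3 experiments.

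A shorter loop, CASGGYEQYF, could be written with no N nucleotide at all.
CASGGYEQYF sequence 1: tgtgccagcggtgggtatgaacagtac
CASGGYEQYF sequence 2: tgtgccagcggtgGTtatgaacagtac
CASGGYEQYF sequence 3: tgtgccagcggtgGctatgaacagtac
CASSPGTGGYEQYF had the most entries of the CDR3s convergent in all 3 experiments, 90 in the series with 58 coding sequences and 15 V genes. Its most abundant coding sequence in experiments A, B and C, in that order, is printed, an example chosen after its values were seen.
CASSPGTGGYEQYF sequence 1: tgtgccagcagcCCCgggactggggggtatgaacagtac
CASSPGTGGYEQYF sequence 2: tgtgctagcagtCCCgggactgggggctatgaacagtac
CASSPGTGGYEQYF sequence 3: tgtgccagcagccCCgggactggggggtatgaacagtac
Sequence 1 carried TCRBV04-01, sequence 2 TCRBV29-01 and sequence 3 TCRBV05-01, and all were joined to TCRBJ02-07.

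Most convergent CDR3s had fewer than 10 entries. Exactly 5 were found for 37.0%, 39.0% and 39.5% of them in experiments A, B and C, 6 to 9 for 50.2%, 48.0% and 43.1%, and 20 or more for 4, 1 and 9 CDR3s. The highest numbers, 33, 35 and 44 entries, all belonged to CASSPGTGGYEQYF. Just outside the limit, 441, 387 and 594 CDR3s had 4 entries, with a median of 5, 6 and 6 templates over the experiment's 4 libraries, against 7, 8 and 8 templates for those with 5. The CDR3s with most templates on both sides of the limit were alike in where those templates lay. With 5 entries, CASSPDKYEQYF had 1027 templates in the CX3CR1+ library of experiment A, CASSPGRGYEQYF 1491 in that of experiment B and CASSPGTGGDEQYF 1082 in that of experiment C. With 4 entries, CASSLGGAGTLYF had 872, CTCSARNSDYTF 642 and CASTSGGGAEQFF 519 templates in CX3CR1+ cells of A, B and C, in that order.

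Convergent CDR3s recurred between experiments. Of those of experiment A, 219 were convergent in experiment B too, which is 42.0% of the list of A and 49.3% of that of B. Experiments A and C shared 300 (57.5% and 35.0% of their lists), and experiments B and C shared 267 (60.1% and 31.2%). All 3 lists held 186 CDR3s, 228 were in exactly 2 lists and 808 in 1. With any number of entries, 1029 (84.2%) of the 1222 were found in all 3 experiments, against 2.97% of the CDR3s convergent in none. Template number was not matched between these sets, and its part in this was not tested. Single rearrangements recurred less. Of the 3393 coding sequences of the 186 CDR3s, 905 (26.7%) were seen in at least 2 experiments and 244 (7.19%) in all 3.

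Within the experiment that chose them, which makes the next values a description, convergent CDR3s held a larger share of templates in CX3CR1+ cells and TILs than in the other subsets. In CX3CR1+ cells they took 26.2% (A), 36.2% (B) and 30.6% (C) of the templates. In TILs they took 14.6%, 27.1% and 31.8%. The CD27lo CX3CR1- libraries gave 7.29%, 7.63% and 10.4%, and the CD27hi CX3CR1- libraries 6.95%, 6.97% and 9.39%. Neither CX3CR1- subset overlapped CX3CR1+ cells or TILs. As a share of the distinct CDR3s detected in a library they made up 3.35%, 2.98% and 4.46% in CD27lo CX3CR1- cells. They made up 1.42%, 1.34% and 1.85% in CD27hi CX3CR1- cells, 4.37%, 4.53% and 5.19% in CX3CR1+ cells and 5.46%, 6.35% and 9.14% in TILs. This share depends on the depth of a library, which was not made equal here, so the groups are not compared by it.

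The rule counts whole entries, and an entry also covers part of the V gene upstream of the CDR3. Of the convergent CDR3s, 432, 370 and 707 in experiments A, B and C had at least 5 distinct coding sequences of the CDR3 itself. The remaining 90, 74 and 149 had fewer and reached 5 entries through differences in the V part. This small second kind held most of the excess in CX3CR1+ cells, with 18.5%, 28.2% and 20.8% of templates there, against 1.37%, 1.61% and 1.74% in CD27lo CX3CR1- cells and 0.892%, 1.06% and 1.22% in CD27hi CX3CR1- cells. In TILs it held 7.35%, 10.3% and 17.6%. The CDR3s with at least 5 coding sequences held 7.65%, 7.99% and 9.86% in CX3CR1+ cells, close to their 5.91%, 6.02% and 8.64% in CD27lo CX3CR1- cells. In TILs they held 7.25%, 16.8% and 14.2%.

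**Figure D1:**
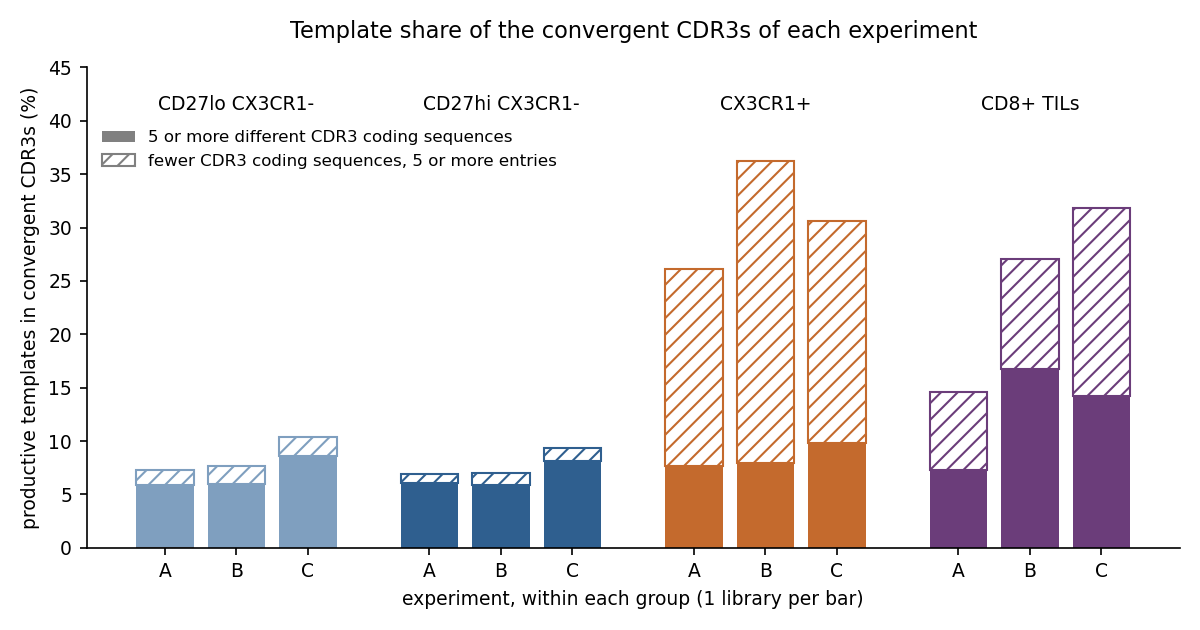
Share of productive templates (percent) held by convergent CDR3s in each library, grouped by cell group and experiment, with the CDR3s of at least 5 distinct coding sequences separated from those that reached 5 entries through the V part. Bars start at 0. The second kind holds 18.5% to 28.2% of templates in CX3CR1+ cells and at most 1.74% in the CX3CR1- subsets.

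In CDR3s of the second kind 1 entry dominated. The most abundant entry of each held 94.8%, 93.9% and 94.1% of their templates in experiments A, B and C. Of the other entries, 69.1%, 65.3% and 63.9% had 1 template. Among these other entries 31.8%, 26.8% and 35.3% repeated the coding sequence of the dominant one, and 77.4%, 74.7% and 84.3% of such repeats were assigned another V gene. The clearest case was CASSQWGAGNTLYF, convergent in experiment B alone, with 17 entries of 1 single coding sequence and 10 V genes. Its dominant entry (TCRBV05-01, TCRBJ01-03) had 9298 templates, 8948 of them in CX3CR1+ cells, and the other 16 entries had 24 templates together and at most 3 each. The dominant entry and the one ranked next, assigned TCRBV03-01, are printed with the CDR3 in capitals to show this, an example chosen after its values were seen.
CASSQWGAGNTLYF entry 1: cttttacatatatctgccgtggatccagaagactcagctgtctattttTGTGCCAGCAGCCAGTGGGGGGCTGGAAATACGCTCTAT
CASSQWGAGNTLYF entry 2: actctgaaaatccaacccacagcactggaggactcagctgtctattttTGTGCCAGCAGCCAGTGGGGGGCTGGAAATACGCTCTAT
Over the 12 entries with another V gene, 16 to 27 of the 48 bases upstream of the CDR3 differed from entry 1.

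Across all coding sequences, the share found with more than 1 V gene moved with abundance. It was 3.88%, 3.68% and 4.19% for sequences of 2 to 9 templates in experiments A, B and C. It was 9.44%, 5.48% and 12.4% for 10 to 99 templates and 38.0%, 35.9% and 38.5% from 100 up to under 1000. Of the 6, 4 and 15 sequences with at least 1000 templates, 66.7%, 75.0% and 66.7% had entries of more than 1 V gene. The origin of the rare entries was not tested. Because the number of entries moves with abundance in this way, the permutation tests were kept to CDR3s chosen in other experiments. This keeps an experiment's own templates out of the choice, but not abundance that a CDR3 has in several experiments. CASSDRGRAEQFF, an example chosen after its values were seen, was convergent in experiment A alone, with 1478 templates in CX3CR1+ cells. It was thus counted in experiments B and C, where TILs held 271 and 171 of its templates. How far such CDR3s as a set carry the differences was not tested.

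For these tests, the members counted in a library were the CDR3s convergent in at least 1 of the other 2 experiments, 1033 for experiment A, 1078 for B and 747 for C. Each test set the mean of CX3CR1+ cells and TILs against the mean of both CX3CR1- subsets in a two-sided exact permutation test within experiments (smallest possible p = 0.00926), with Benjamini-Hochberg adjustment over the 6 tests made. The libraries of a group come from separate experiments. A p-value here is the share of label exchanges within experiments that gave a mean difference at least as large. It does not measure the spread between experiments, which the SD beside each difference gives.

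Template share remained higher in CX3CR1+ cells and TILs with members chosen this way. It was 8.11%, 8.61% and 7.33% in CD27lo CX3CR1- cells, 7.83%, 8.67% and 6.75% in CD27hi CX3CR1- cells, 14.0%, 9.83% and 10.2% in CX3CR1+ cells and 15.0%, 20.6% and 17.8% in TILs of experiments A, B and C. Every CX3CR1+ and TIL library lay above every CX3CR1- library, and the group means were 8.02% ± 0.649, 7.75% ± 0.964, 11.4% ± 2.33 and 17.8% ± 2.83 (SD, n = 3). The difference was 6.71 percentage points ± 0.256 (SD of 3 experiments; exact permutation p = 0.00926, adjusted 0.0278). Within the spleen, CX3CR1+ cells stood 6.07, 1.19 and 3.19 points above the average of both CX3CR1- subsets, a mean of 3.48 ± 2.46 (exact permutation p = 0.0370, the smallest that 27 arrangements allow, adjusted 0.0444). The widest counting interval was that of the TIL library of experiment A, 14.1% to 15.9% (95% Wilson).

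A large part of this rested on 1 CDR3. Without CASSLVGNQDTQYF, given as a description with no test, the difference was 3.19 points ± 2.08, with 4.06, 0.815 and 4.69 in experiments A, B and C, and the spleen difference 1.42 ± 2.32. In experiment B the CX3CR1+ library then held 7.45%, below the 8.16% of CD27lo CX3CR1- and the 8.60% of CD27hi CX3CR1- cells. TILs still held 12.3%, 10.9% and 14.3%.

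Counted by distinct CDR3s rather than templates, with every library drawn down to 5893 templates, the difference was smaller. Convergent CDR3s chosen in the other experiments made up 5.68% ± 0.805 of distinct CDR3s in CD27lo CX3CR1- cells, 5.69% ± 0.801 in CD27hi CX3CR1- cells, 7.54% ± 1.06 in CX3CR1+ cells and 7.19% ± 1.38 in TILs (SD, n = 3). The difference was 1.68 points ± 0.790 (exact permutation p = 0.0278, adjusted 0.0417). TILs of experiment A went the other way, with 5.76% against 6.13% in CD27lo CX3CR1- and 5.89% in CD27hi CX3CR1- cells.

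Within a convergent CDR3, templates were spread over several rearrangements in the CX3CR1- subsets and gathered on 1 in CX3CR1+ cells and TILs. This was measured as the probability that 2 templates drawn from a CDR3 with at least 5 templates in a library belong to the same entry, averaged over CDR3s. It was 0.285, 0.265 and 0.262 in CD27lo CX3CR1- cells and 0.146, 0.150 and 0.128 in CD27hi CX3CR1- cells of experiments A, B and C. It was 0.748, 0.790 and 0.711 in CX3CR1+ cells and 0.905, 0.832 and 0.829 in TILs. The groups did not overlap, and the difference was 0.597 ± 0.0189 (SD of 3 experiments; exact permutation p = 0.00926, adjusted 0.0278). The CDR3s averaged differed between groups, because the limit of 5 templates was set in each library. They numbered 72 to 79 per library in CD27lo CX3CR1- cells and 329 to 381 in CD27hi CX3CR1- cells. In CX3CR1+ cells they numbered 91 to 123, and in TILs 18 to 35. Other CDR3s ran from 0.272 to 0.334 in CD27hi CX3CR1- cells and from 0.746 to 0.797 in CD27lo CX3CR1- cells. They ran from 0.962 to 0.970 in CX3CR1+ cells and from 0.965 to 0.972 in TILs. Within each of the 12 libraries they lay above the convergent ones. The rule chose convergent CDR3s for many entries, which lowers this probability, so nothing is read from that order.

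**Figure D2:**
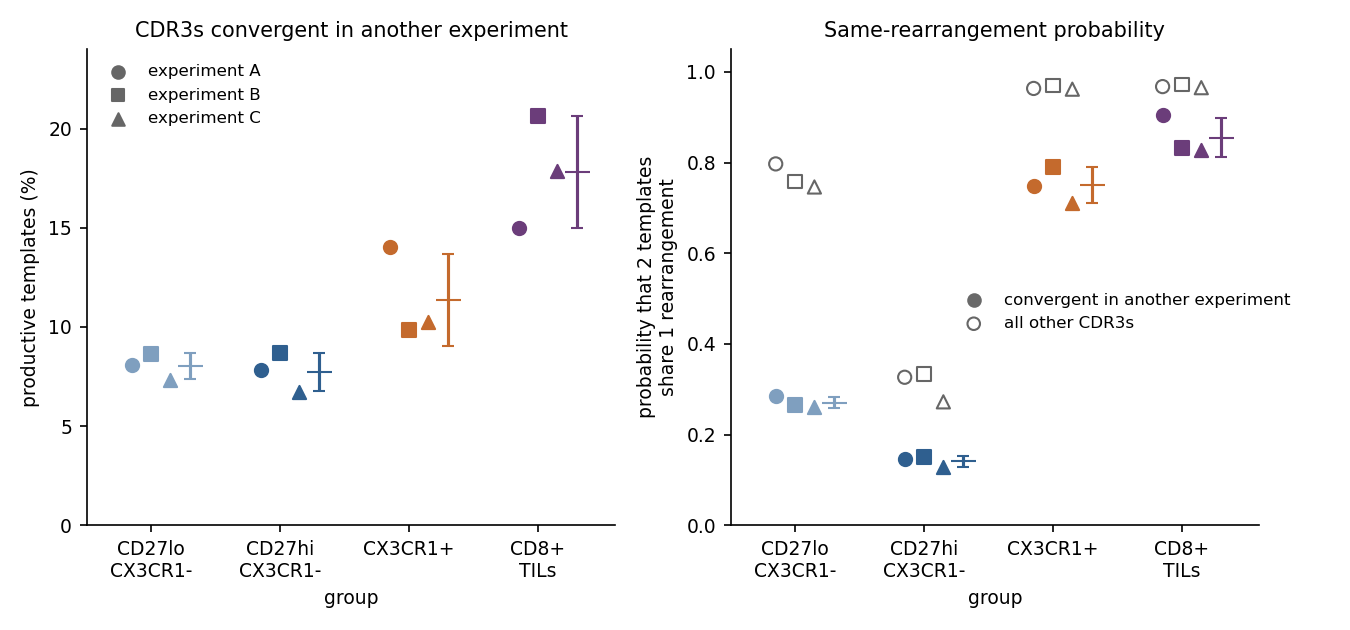
Values per library for CDR3s convergent in at least 1 of the other 2 experiments, by cell group. Each experiment has 1 filled symbol, with the mean ± SD beside them. The measures are template share (percent of productive templates) and probability that 2 templates of a CDR3 share a rearrangement (0 to 1). Open symbols, drawn for the probability only, are all other CDR3s. Filled CX3CR1+ and TIL symbols lie above every filled CX3CR1- symbol in both measures.

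Convergent CDR3s carried few N nucleotides. In the experiment that chose them their entries had on average 1.86, 1.78 and 1.99 N nucleotides, against 3.57, 3.56 and 3.66 in other CDR3s. No N nucleotide at all was found in 25.6%, 27.8% and 23.5% of their entries, against 7.90%, 8.08% and 7.11%. For members chosen in the other experiments, the mean per library was 1.69 ± 0.0292 in CD27lo CX3CR1- cells, 1.75 ± 0.0250 in CD27hi CX3CR1- cells, 1.95 ± 0.0627 in CX3CR1+ cells and 1.91 ± 0.132 in TILs (SD, n = 3), and other CDR3s had 3.54 to 3.72. The difference of 0.209 nucleotides ± 0.0717 between CX3CR1+ cells or TILs and the CX3CR1- subsets passed the test (exact permutation p = 0.0185, adjusted 0.0370). TILs of experiment A, at 1.76, lay below the 1.78 of CD27hi CX3CR1- cells of that experiment. With members chosen by distinct coding sequences the difference was 0.120 nucleotides and did not pass (exact permutation p = 0.111).

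They were also short. Loops of at most 13 residues made up 49.0%, 48.4% and 51.5% of convergent CDR3s in experiments A, B and C, against 32.0%, 31.7% and 31.1% of the others. Loops of over 14 residues made up 13.2%, 14.6% and 14.6%, against 38.5%, 38.8% and 39.8%. Their lengths ran from 9 to 17 residues, while the others ran from 3 to 26. With members chosen in the other experiments, mean CDR3 length was 39.3 to 40.3 nucleotides in the 12 libraries, against 41.9 to 42.1 for other CDR3s. Between the groups the difference was 0.300 nucleotides ± 0.0706 and did not pass the test (exact permutation p = 0.0833, adjusted 0.0833).

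**Figure D3:**
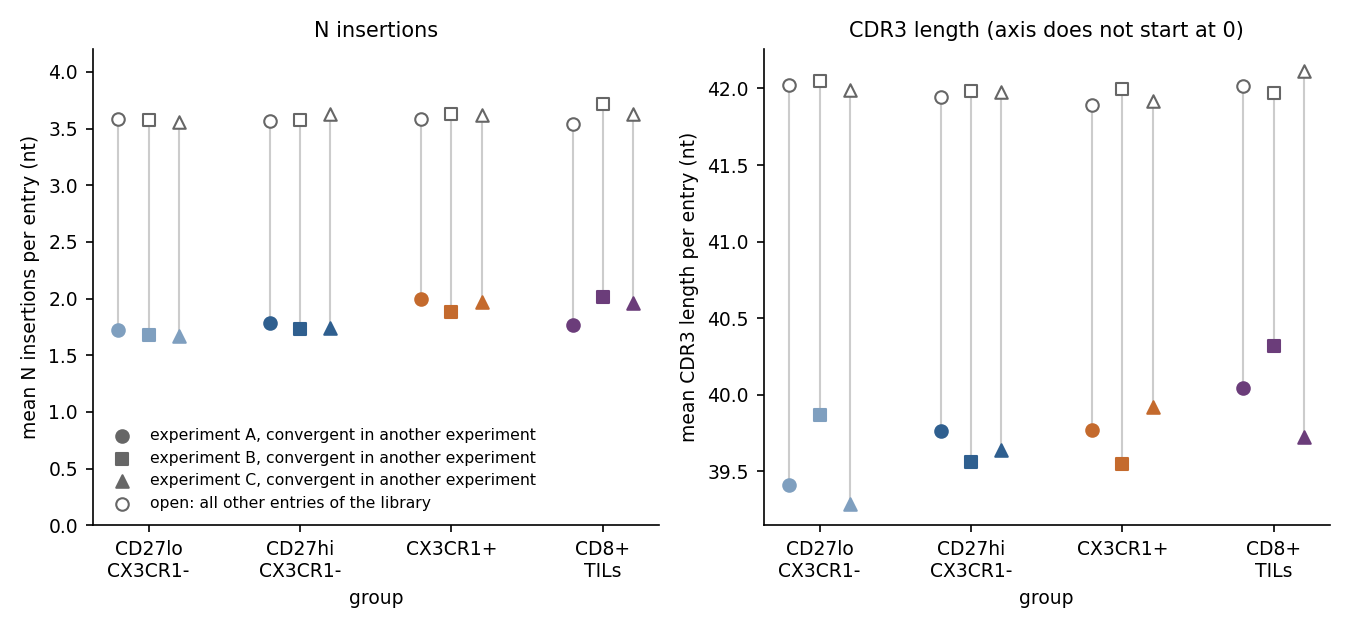
Mean N nucleotides per entry and mean CDR3 length (both in nucleotides) in each library, by cell group, for CDR3s convergent in the other experiments and for the remaining CDR3s. Convergent CDR3s lie at 1.67 to 2.01 N nucleotides and the remaining ones at 3.54 to 3.72, with no overlap in any group.

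Some residues were more common in their middle, here the CDR3 without its first 3 and last 5 residues, and others rarer. Of the residues with the most codons, leucine made up 9.66%, 9.62% and 8.65% of middle residues in experiments A, B and C, against 5.66%, 5.64% and 5.52% in other CDR3s. Serine made up 23.8%, 24.2% and 24.6%, against 18.7%, 18.6% and 18.6%, and glycine, which D segments encode, 25.1%, 24.9% and 25.0%, against 22.1%, 22.2% and 21.9%. Arginine, which has as many codons as leucine and serine, went the other way, with 4.10%, 4.53% and 5.04% against 7.10%, 6.96% and 7.12%. Of the remaining residues with 4 codons, proline was higher (4.32% to 4.76% against 3.43% to 3.47%), while alanine (3.38% to 4.32% against 5.93% to 6.04%), threonine (4.21% to 4.71% against 5.41% to 5.51%) and valine (0.327% to 0.513% against 1.94% to 1.99%) were lower. Glutamate was rare (0.214% to 0.468% against 2.45% to 2.50%). A middle residue had on average 4.31, 4.32 and 4.34 codons in convergent CDR3s and 4.03, 4.03 and 4.02 in the others.

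Entries of a convergent CDR3 were assigned several V genes but nearly always 1 J gene. The median was 4, 4 and 5 V genes per CDR3 in experiments A, B and C. Of the convergent CDR3s, 99.2%, 98.9% and 98.7% used 1 J gene. Rare entries are counted here, and their origin was not tested. Entries with 1 template made up 57.9%, 53.2% and 53.8% of the entries of convergent CDR3s. V and J genes lie in the TCRβ locus on mouse chromosome 6, and positions given here are those of the GRCm38 annotation, the build named in the submitters' processing notes as mm10. TCRBV12-01 (41113567 to 41114067) was in 15.9% ± 0.445 of their entries and 7.81% ± 0.167 of the others' (SD, n = 3 experiments). TCRBV12-02 (41118864 to 41119364) was in 10.8% ± 0.474 and 5.35% ± 0.0821. TCRBV03-01 (41048394 to 41048824) was in 9.98% ± 1.32 and 6.31% ± 0.212. These V genes had the largest excess in convergent CDR3s, and all lay on the same side in each experiment.

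The largest deficits among V genes were those of TCRBV13-02 (41121396 to 41121832) with 3.02% ± 0.258 against 9.40% ± 0.0586, TCRBV01-01 (40891296 to 40891885) with 0.617% ± 0.202 against 5.01% ± 0.142 and TCRBV20-01 (41188273 to 41188977) with 0.0271% ± 0.0469 against 2.79% ± 0.0802. In all, 9 V genes were more frequent and 16 less frequent among entries of convergent CDR3s in all 3 experiments. Of the J genes, 2 were more frequent in each experiment. TCRBJ02-07 (41543810 to 41543856), which encodes the ending YEQYF, was in 40.1% ± 2.21 of entries, against 20.7% ± 0.111, a difference of 19.4 points ± 2.17. TCRBJ01-02 (41534001 to 41534048) was in 9.03% ± 1.07, against 6.91% ± 0.131. Among the 9 J genes that were less frequent were TCRBJ02-02 (41542957 to 41543007) with 2.19% ± 0.564 against 5.84% ± 0.132, TCRBJ01-04 (41534811 to 41534861) with 3.96% ± 1.39 against 7.13% ± 0.0709 and TCRBJ02-03 (41543223 to 41543271) with 4.98% ± 0.636 against 8.13% ± 0.0666.

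**Figure D4:**
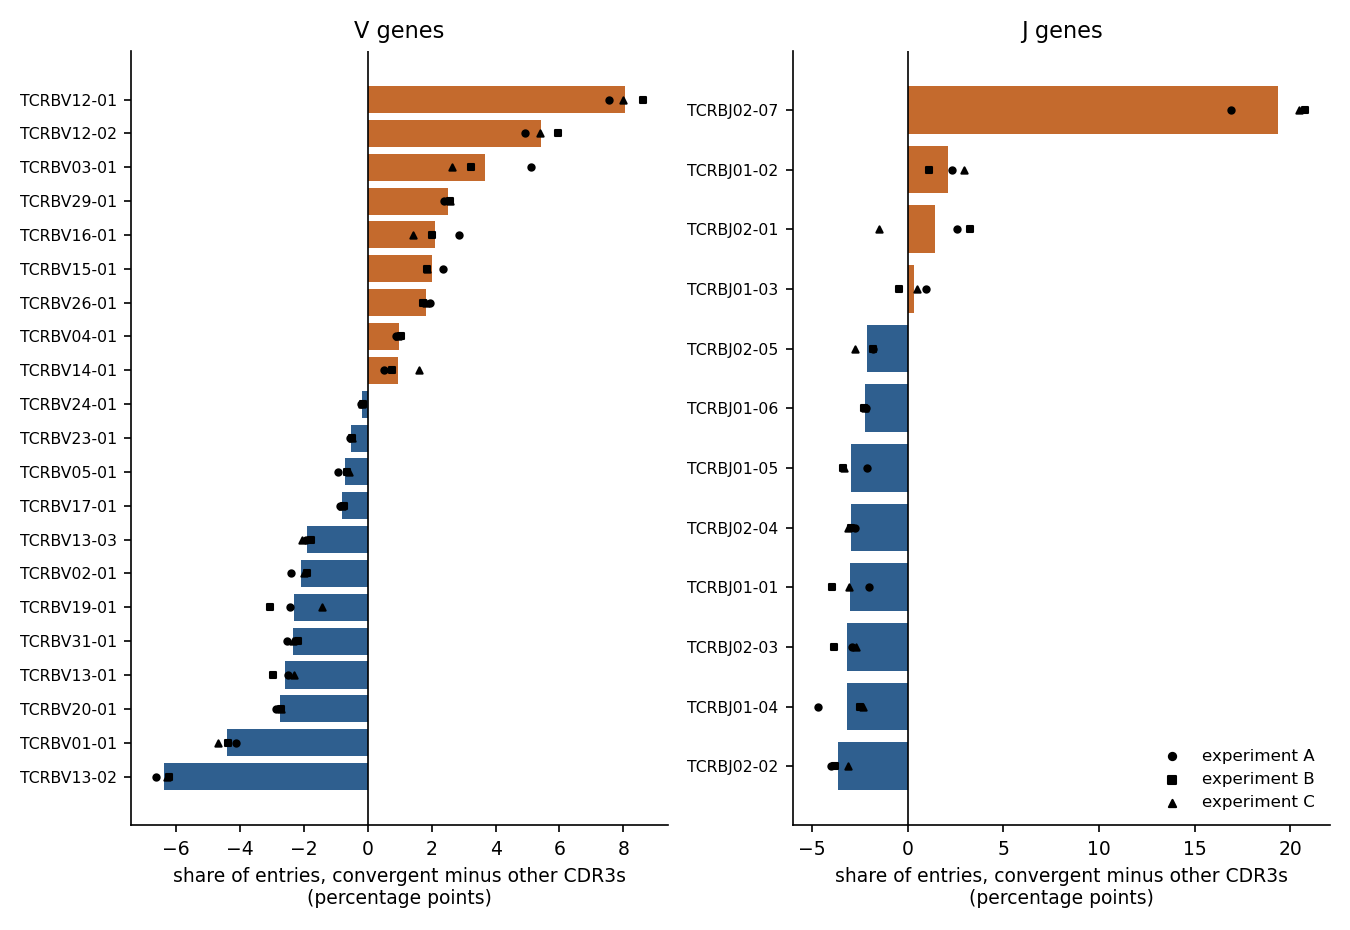
Difference in share of entries (percentage points, convergent minus other CDR3s) for each V gene and each J gene at 0.5% or more, with bars for the mean of 3 experiments and 1 symbol per experiment. TCRBJ02-07 stands out at 19.4 points and TCRBV12-01 at 8.06, and TCRBV13-02 is lowest at -6.38.

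The next question was whether 1 or several rearrangements of a convergent CDR3 were expanded, taken as an entry with at least 0.1% of a library's templates and at least 3 templates. In CX3CR1+ cells 23 of the 287 convergent CDR3s detected in experiment A had such an entry (8.01%), as did 18 of 235 in experiment B (7.66%) and 41 of 543 in experiment C (7.55%). Among all CDR3s of those libraries the shares were 2.15%, 2.22% and 1.33%. In TILs 12 of 71 (16.9%), 21 of 92 (22.8%) and 32 of 186 (17.2%) had an expanded entry, beside 8.61%, 8.14% and 6.04% of all CDR3s. Since an abundant CDR3 gathers entries, nothing is read from this excess. CX3CR1- libraries held 0 to 3 such convergent CDR3s each. The CDR3s with an expanded entry held 23.4% to 33.3% of templates in CX3CR1+ cells and 12.9% to 29.5% in TILs.

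Usually 1 rearrangement was expanded. Totals over the 6 CX3CR1+ and TIL libraries count a CDR3 once in each library where it had an expanded entry. A CDR3 such as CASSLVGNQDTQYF is therefore counted several times. In this way 147 convergent CDR3s with an expanded entry were counted, of which 19 (12.9%) had at least 2. Per library these were 1 of 23, 4 of 18 and 5 of 41 in CX3CR1+ cells and 1 of 12, 5 of 21 and 3 of 32 in TILs. With members chosen in the other experiments and the same way of counting, 15 of 97 (15.5%) had at least 2 expanded entries. Among the remaining CDR3s with an expanded entry it was 11 of 651 (1.69%). The share was higher for members in 5 of the 6 libraries. The exception was the CX3CR1+ library of experiment A, where none of 18 had more than 1. A CDR3 with 1 entry cannot have 2 expanded ones, and CDR3s outside an experiment's own list had a median of 1 entry. Members were chosen for many entries, so nothing is read from this difference.

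CX3CR1+ cells and TILs of an experiment shared expanded convergent CDR3s. Both libraries held an expanded entry of 6, 12 and 26 of them in experiments A, B and C, which is 26.1%, 66.7% and 63.4% of those of CX3CR1+ cells. Of those of TILs they were 6 of 12, 12 of 21 (57.1%) and 26 of 32 (81.2%). Among expanded CDR3s that were not convergent, 22, 33 and 31 were expanded in both libraries, which is 18.6%, 34.0% and 31.6% of those of CX3CR1+ cells and 22 of 100, 33 of 97 (34.0%) and 31 of 91 (34.1%) of those of TILs. The difference between the lists was not tested, and how abundant their CDR3s were was not matched. The most abundant entry was the same in both libraries for 3 of the 6, 10 of the 12 and 23 of the 26. Every convergent CDR3 expanded in TILs was detected in CX3CR1+ cells of the same experiment (12, 21 and 32), as were 60 of 100, 87 of 97 and 89 of 91 of the other CDR3s expanded in TILs. Across experiments, 24 of the 186 CDR3s convergent in all 3 were expanded in at least 1 experiment, 5 in at least 2 and 3 in all 3. For 4 of these 5 an expanded entry was the same nucleotide sequence in at least 2 experiments. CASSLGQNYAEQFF was the exception.

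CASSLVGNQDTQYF (TCRBV12-01 in 98.8% of templates, TCRBJ02-05) showed both patterns. Over experiments A, B and C, it held 2.48%, 2.38% and 2.27% of CX3CR1+ templates and 2.68%, 9.68% and 3.52% of TIL templates. CD27lo CX3CR1- libraries held 0.147%, 0.451% and 1.14% and CD27hi CX3CR1- libraries 0.0593%, 0.0672% and 0.0279%, so that the groups did not overlap. It had 8, 17 and 21 entries, with 3, 11 and 10 coding sequences.

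In experiment A sequence 1 of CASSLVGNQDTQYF dominated, with 1370 of 1385 templates in CX3CR1+ cells and all 158 in TILs. In experiment B several were expanded, 6 entries in CX3CR1+ cells and 4 in TILs. There, sequence 3 led in TILs with 921 templates against 221 in CX3CR1+ cells, sequence 4 had 145 and 237, and sequence 5 had 73 and 286. Sequence 6 had 269 templates in CX3CR1+ cells of experiment B and 0 in its TILs. In experiment C sequence 1 led again with 1733 templates in CX3CR1+ cells and 354 in TILs. Sequence 6 had 698 and 61 there, and sequence 7 had 240 in TILs and 0 in CX3CR1+ cells. The most abundant entry held 98.9%, 23.5% and 67.1% of the CDR3's templates in CX3CR1+ cells and 100%, 76.8% and 48.0% in TILs, so 1 rearrangement carried it in experiment A and several did in experiments B and C.

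**Figure D5:**
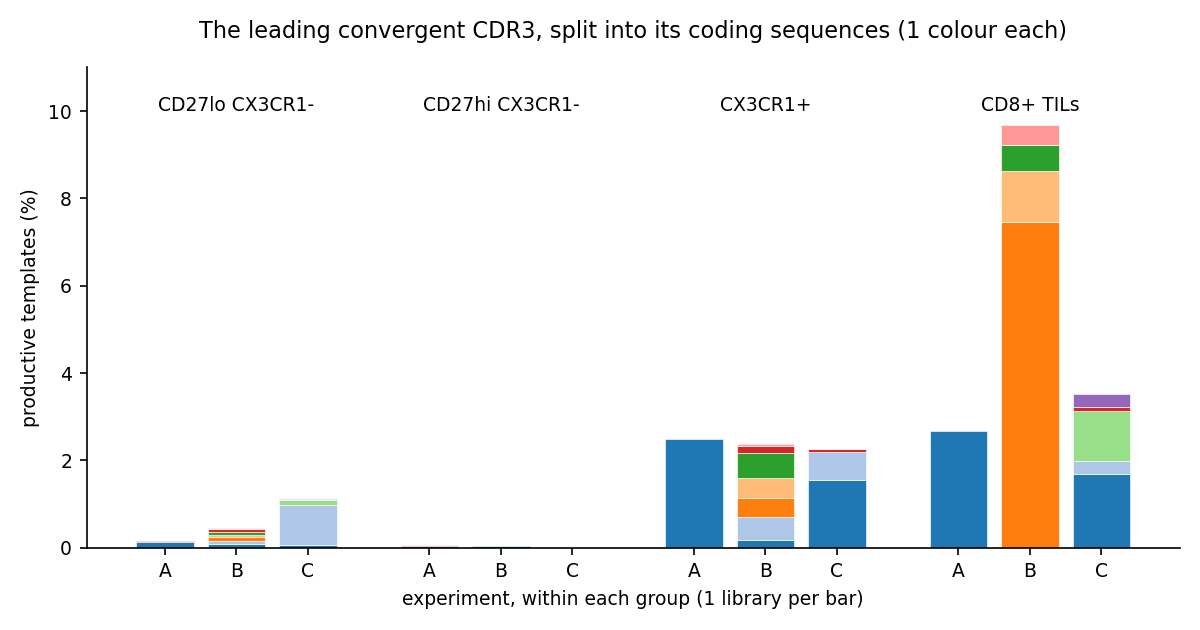
Share of productive templates (percent) of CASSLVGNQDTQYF in each library, stacked by coding sequence of the CDR3, with the same colour for the same sequence in all libraries. A single colour fills the CX3CR1+ and TIL bars of experiment A, while the TIL bars of experiments B (9.68%) and C (3.52%) hold several.

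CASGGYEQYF (TCRBV13-02, TCRBJ02-07) was expanded in all 3 experiments. It held 0.217%, 0.528% and 0.157% of templates in CX3CR1+ cells and 0.272%, 1.01% and 1.70% in TILs, against at most 0.0715% in any CX3CR1- library. Its sequence without N nucleotides led in experiment B, with 191 templates in CX3CR1+ cells and 105 in TILs, and in experiment C, with 88 and 228. In experiment A the sequence printed second led, with 72 templates in CX3CR1+ cells and 0 in TILs.

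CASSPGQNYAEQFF and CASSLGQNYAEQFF, both mostly with TCRBV19-01 and TCRBJ02-01, differ in 1 residue. Their leading sequences are printed to show where N nucleotides fell.
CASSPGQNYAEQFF sequence 1: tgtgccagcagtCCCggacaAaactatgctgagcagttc
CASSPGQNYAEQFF sequence 2: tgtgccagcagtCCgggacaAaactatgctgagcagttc
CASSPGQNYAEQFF sequence 3: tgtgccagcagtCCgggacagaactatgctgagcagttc
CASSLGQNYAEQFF sequence 1: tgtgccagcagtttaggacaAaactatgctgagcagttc
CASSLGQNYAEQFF sequence 2: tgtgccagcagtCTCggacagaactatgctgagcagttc
Going from experiment A to C, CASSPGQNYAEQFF held 0.0663%, 0.147% and 0.882% of CX3CR1+ templates and 0.0679%, 0.202% and 1.98% of TIL templates. Of its templates in experiment C, sequence 1 had 663 in CX3CR1+ cells and 14 in TILs, while sequence 2 had 316 and 314, so 2 rearrangements of 1 CDR3 were divided differently between spleen and tumor. Sequence 3 of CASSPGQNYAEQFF was in all 3 experiments, with 35, 43 and 20 templates in CX3CR1+ cells and 3, 16 and 23 in TILs. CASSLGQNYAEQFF held 1.19%, 0% and 0.468% of TIL templates, and its leading sequence was sequence 1 in experiment A (65 TIL templates) and sequence 2 in experiment C (97 TIL templates).

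The CDR3 with most entries was not among the expanded ones. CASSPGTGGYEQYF, with its 90 entries, had no expanded rearrangement in any of the 12 libraries, and held 0.0896% to 0.123% of CD27hi CX3CR1- templates. The next by entries was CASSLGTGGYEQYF with 58 in the series. Another CDR3 with this ending had 57 entries, and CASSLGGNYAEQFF, which ends in the NYAEQFF of TCRBJ02-01, had 50. The fifth was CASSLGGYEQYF with 44 entries, and 4 of these 5 ended in the YEQYF of TCRBJ02-07.

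Other convergent CDR3s were large in 1 experiment. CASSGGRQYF was found in experiment C alone, where it held 3.05% of CX3CR1+ and 4.17% of TIL templates through 14 entries with 1 coding sequence. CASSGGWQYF held 3.08% of TIL templates there. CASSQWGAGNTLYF held 17.6% of CX3CR1+ templates of experiment B and 1.44% of its TIL templates, against 0.429% in CD27lo CX3CR1- and 0.189% in CD27hi CX3CR1- cells. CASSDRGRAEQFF had 2 expanded entries in CX3CR1+ cells of experiment A, with 1.74% and 0.893% of templates. In TILs of that experiment, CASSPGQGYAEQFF had 2, with 1.88% and 1.65%.

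A count model over single CDR3s gave few calls. Of 1392 CDR3s with at least 20 templates over at least 3 libraries, edgeR's quasi-likelihood test with the experiment as a block called 0.503% higher in CX3CR1+ cells than in the CX3CR1- subsets and 1.36% higher in TILs (Benjamini-Hochberg adjusted p under 0.05). Of the 1222 convergent CDR3s 636 passed this filter on counts, and 5 and 8 of these were called in the 2 comparisons. The same templates had a part in choosing them, so nothing is read from these counts and no single CDR3 is given a p here. Without the experiment block no convergent CDR3 was called in either comparison. DESeq2 called 0 in CX3CR1+ cells and 1 in TILs. None was called between TILs and CX3CR1+ cells by edgeR (18 of those tested higher and 18 lower at an unadjusted p under 0.05). DESeq2 called 4 convergent CDR3s there. Counts without the block and by DESeq2 are given without the share called over all CDR3s, so nothing is read from them either.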

How the data were processed

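The deposited values are template counts per TCRβ rearrangement, which the authors obtained by ImmunoSEQ (survey level) from genomic DNA, with mm10 in the processing notes and further settings not given in the sources used here. Productive rows were used. The deposited names of the N insertion columns did not follow the deposited positions, so both insertions were summed. V and J names were matched to RefSeq gene positions (32 of 32 and 14 of 14). The members and lists were chosen with earlier results of these data known. Named CDR3s had at most 14 residues: the 10 highest in CX3CR1+ and TIL libraries and the 5 with most entries among those convergent in all 3 experiments, the 3 highest per CX3CR1+ and TIL library, and those at the limit. V and J genes were the 3 with the largest difference in each direction. Libraries of 1 experiment were paired through the code shared by their titles. Deviations from group means of same-experiment libraries correlated on average by 0.153 for template share, 0.556 for unique share, -0.0809 for N insertions, -0.256 for length and 0.481 for the same-rearrangement probability. Exact permutations were made in Python 3.11.15 (numpy 2.4.6, pandas 2.3.3, scipy 1.17.1), and count models in R 4.3.3 with edgeR 4.0.16 (library size: productive templates) and DESeq2 1.42.0. The permutation test and the edgeR model were tried on simulated data, and DESeq2 was not. Equal depth used 20 draws. Alternatives were the entry limit, the unit counted as a rearrangement, merging, depth, weighting, block, normalization, filter, tool and leaving out each experiment.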

Additional observations from a re-analysis of the deposited data

How the results depend on the processing

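Template share, unique share and the same-rearrangement probability kept their direction and passed the test under every alternative tried with 3 experiments, but not their size. With members convergent in both other experiments the difference was 3.84 points for template share, 2.13 within the spleen (2.25 with distinct coding sequences) and 1.04 for unique share, which was also 1.03 with at least 10 entries, 1.01 with entries of 2 or more templates and 2.69 without equal depth. Without the replicate block (924 arrangements) the values are unchanged and the exact permutation p is 0.00216 for template share, 0.0119 within the spleen, 0.0195 for unique share, 0.00433 for N insertions, 0.0649 for length and 0.00216 for the same-rearrangement probability. The N insertion difference was 0.636 nucleotides when weighted by templates and 0.422 at equal depth, and it lost the call with at least 10 entries (0.295, exact permutation p = 0.0741), with distinct coding sequences (0.120, p = 0.111 by exact permutation) and with members convergent in both other experiments (0.0954, p = 0.176 by exact permutation). Length turned to -0.0701 nucleotides with the last of these. It was -0.114 without experiment C, a setting that also took the list of C out of the choice of members. With the members of the main test, the length difference was 0.321 in experiment A and 0.221 in experiment B. Weighted by templates, length passed at 1.37 (exact permutation p = 0.00926). The causes of these changes were not tested. In the main test, where both other lists gave members, the template share difference was 6.53, 6.59 and 7.00 points in experiments A, B and C. With 1 experiment left out, no test can pass (smallest exact permutation p 0.0556, or 0.111 within the spleen). Its list was left out too, so the members counted in a remaining experiment came from 1 other list only and were not those of the main test. The ranges were then 4.19 to 6.57 points for template share, 1.60 to 4.84 within the spleen, 1.25 to 1.55 for unique share, 0.0797 to 0.224 nucleotides for N insertions, -0.114 to 0.361 for length and 0.558 to 0.596 for the same-rearrangement probability.

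Counted per library, the 19 convergent CDR3s with at least 2 expanded entries became 34 at 0.05% of templates and 6 at 0.5%. Leaving out 1 experiment gave 10 to 17 (fewest without experiment B, 11 without C). Counting coding sequences, an alternative chosen after seeing the data, gave 19. Of the edgeR calls, the 5 in CX3CR1+ cells became 9 with TMM, 0 with a filter of 2 libraries and 5 templates, 0 with no replicate block, 0 with DESeq2 and 3 to 5 without 1 experiment (3 without A or B). The 8 in TILs became 4, 1, 0, 1 and 5 to 7 (5 without A or C) in the same order. Between TILs and CX3CR1+ cells, DESeq2 gave 4. All these are counts of convergent CDR3s, given without the share called over all CDR3s in the same setting. Nothing is read from how they moved. Depth limits the TIL library of experiment A most, where 3 templates are 0.0509%.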
